A study of Mus musculus with 15 samples.

Results

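The natriuretic peptides Nppa and Nppb were examined with 8 genes of the stressed ventricle: Ankrd1, Xirp1, Xirp2, Fhl1, Fhl2, Rcan1, Csrp3 and Gdf15. Members were all probe sets, the groups of short probes that each report 1 signal, whose annotated symbol was one of these 10 names. This gave 11 of the array's 45096 probe sets, for 8 of the 10 genes, among 18191 genes with a symbol of their own on the array. No probe set carried the symbol Xirp2 or Gdf15, which are thus not analysed here. Of the 11, 10 were bright enough to test (mean log2 signal of at least 5.74), and the dim one was 1459003_at, 1 of a pair for Fhl1.

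The arrays measured RNA from the apex of the heart in untreated males of C3H/HeJ (labelled C3H), C57BL/6J (C57Bl/6) and B6C3F1/J, the first-generation cross of these inbred strains (B6C3F1). There were 5 mice of each kind, 1 array per mouse. All 15 animals had a telemetry transmitter placed in the abdomen at 7 weeks of age and were 9 to 10 weeks old when the tissue was taken, so there was no group without surgery. The study set cardiac expression beside the heart physiology of the strains.

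Nppa and Nppb encode the hormones ANP and BNP, which heart muscle cells release when they are stretched and which promote salt excretion and relax blood vessels. In the adult, Nppa RNA is mainly atrial, and both genes rise in a ventricle under load. The other members belong to the response of the muscle cell itself: Ankrd1 and Csrp3 are mechanically responsive proteins of the sarcomere and its Z-disc, Xirp1 binds actin at cell junctions, Fhl1 and Fhl2 are LIM-domain scaffolds, and Rcan1 is an inhibitor and target of calcineurin.

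Fhl1 was higher in C3H than in C57Bl/6 in every alternative setting of the fit. Xirp1 was also higher, by a call lost in 8 of 29 settings. Nppa, Nppb and Ankrd1 varied together between mice of the same strain. Between C3H and C57Bl/6, 2 of the 10 tested probe sets passed the test (limma, adjusted p under 0.05, which here means adjusted over all tested probe sets), Fhl1 and Xirp1, both higher in C3H. Over all 27019 tested probe sets 12.7% passed in this comparison, 5.70% higher and 7.01% lower in C3H. None of the 10 passed between B6C3F1 and C57Bl/6, against 2.99% of all probe sets (1.58% higher, 1.41% lower). At an unadjusted p under 0.05 there were 2, where 18.9% of all probe sets lay. Between B6C3F1 and C3H 1 passed, Fhl1, lower in B6C3F1, against 4.92% of all (2.90% higher, 2.02% lower). None passed between B6C3F1 and the midparent (the average of the C3H and C57Bl/6 means on the log2 scale), against 0.603% of all (0.403% higher, 0.200% lower), and 2 had an unadjusted p under 0.05, as did 13.4% of all. In C3H minus C57Bl/6 and B6C3F1 minus C3H that count was 5 and 3 of the 10, beside 24.9% and 17.4% of all. The median difference of the 10 was 0.05 for C3H minus C57Bl/6 and 0.26 for B6C3F1 minus C57Bl/6, beside -0.03 and -0.01 over all tested probe sets. The comparisons share arrays, so their counts are not independent. All values are log2(signal + 16), and levels are compared only within a probe set.

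**Figure D1:**
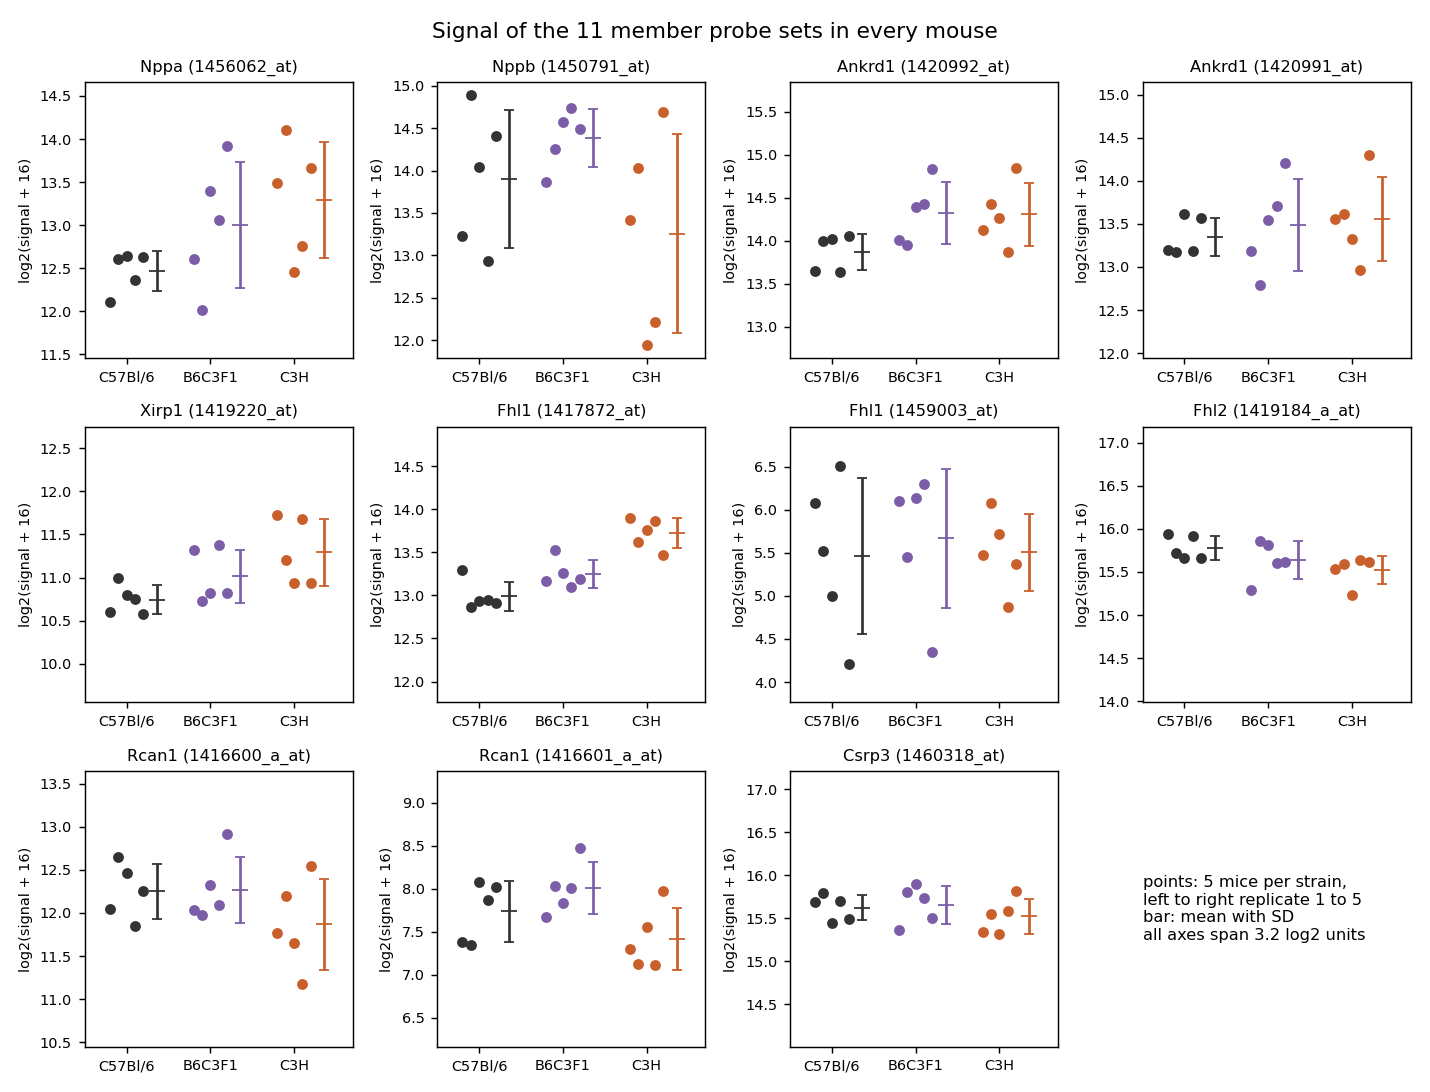
Log2(signal + 16) of the 11 member probe sets in each of the 15 mice (points), by strain, with strain means and SD. Fhl1 1417872_at separates C3H from C57Bl/6 without overlap, while Nppb spans 11.94 to 14.69 within C3H alone.

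Marker genes were set beside the labelled tissue, the apex of the heart. All 8 ventricular muscle markers were tested and 0 passed between C3H and C57Bl/6 by limma, 1 having an unadjusted p under 0.05. Over all tested probe sets 12.7% passed (5.70% higher, 7.01% lower in C3H), and 24.9% had an unadjusted p under 0.05. The median difference of the 8 was -0.20. Their summed level ran from 18.43 to 18.87 in C3H, 18.65 to 19.07 in C57Bl/6 and 18.47 to 19.03 in B6C3F1. Of 7 atrial markers 5 were tested, with 1 higher (Myl4, 1.16) and 2 lower (Kcna5, -0.93, and Kcnj3, -0.87) in C3H than in C57Bl/6. Myl7 and Nr2f2, both at 0.37, did not pass, and Sln and Bmp10 were the 2 dim ones. The summed atrial level ran from 11.72 to 12.14 in C57Bl/6, 11.42 to 11.80 in C3H and 11.43 to 12.10 in B6C3F1. In C57Bl/6 Kcna5 (11.05) and Kcnj3 (10.14) were the brightest of the 7, so the sum leans on these 2 genes. Whether it tracks atrial tissue was not tested. Of 5 skeletal muscle markers 4 were dim, and Tnni2 was lower in C3H (-1.15; limma adjusted p = 0.018). Of 6 fibroblast markers 3 passed, all higher in C3H than in C57Bl/6, and the summed fibroblast level did not overlap (15.16 to 15.34 against 14.71 to 14.94; 15.08 to 15.26 in B6C3F1). Of 5 endothelial markers 2 were lower in C3H, Cdh5 (-0.56; limma adjusted p = 0.0155) and Cldn5 (-0.66; 0.01), with summed levels of 12.36 to 13.19 in C3H, 12.99 to 13.41 in C57Bl/6 and 12.71 to 13.47 in B6C3F1. Of 5 macrophage markers 1 was higher and 1 lower, and 1 of 5 smooth muscle markers was lower. The only tested red cell marker, Alas2 (-0.79; limma adjusted p = 0.0173), and the only tested adipocyte marker, Car3 (-1.92), were lower in C3H. Over alternative settings of the fit, the Car3 call was lost in 18 of 28 and that of Tnni2 in 4 of 28. Calls of the macrophage markers Cd68 (higher) and Adgre1 (lower) were lost in 9 and 5 of 29. Those of Lum, a fibroblast marker, and Alas2 were lost in 9 and 4 of 29. Poly-A control RNAs, added during labelling, averaged 9.34 ± 0.64 (SD, n = 5) in C3H, 8.69 ± 0.60 in C57Bl/6 and 8.70 ± 0.15 in B6C3F1. The medians were closer, at 9.07, 8.96 and 8.74, as C3H replicate 4 (10.48) and C57Bl/6 replicate 5 (7.66) stood apart. The Gapdh 3′ to 5′ log2 ratio averaged 0.60 ± 0.26 (SD, n = 5) in C3H, 0.85 ± 0.24 in C57Bl/6 and 0.90 ± 0.21 in B6C3F1. These marker levels thus differed between C3H and C57Bl/6 along with Fhl1 and Xirp1, and their part in those results was not tested. In tissue RNA, fewer cells of a type and less RNA per cell cannot be told apart. Each strain has its own stretch of sample numbers in the labels, so handling order and strain cannot be told apart either.

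Nppa, the precursor of ANP, was measured by 1 probe set. In C57Bl/6 the 5 mice read 12.11, 12.61, 12.64, 12.36 and 12.64. In C3H they read 13.49, 14.10, 12.46, 12.76 and 13.67, and in B6C3F1 12.60, 12.02, 13.40, 13.06 and 13.92. The C57Bl/6 mice lay close together, and 4 of the 5 C3H mice were above all of them, but C3H replicate 3 fell among them and the B6C3F1 mice overlapped both strains. The means were 12.47 ± 0.23 in C57Bl/6, 12.998 ± 0.730 in B6C3F1 and 13.29 ± 0.67 in C3H (SD, n = 5). The C3H minus C57Bl/6 difference was 0.82 ± 0.30 (SE), with a 95% interval of 0.21 to 1.44, and did not pass (limma adjusted p = 0.0763). It passed without C3H replicate 3 (1.03, limma adjusted p = 0.0255), without B6C3F1 replicate 2 (0.0429) or 5 (0.0444), in the fit of these strains alone (0.0377) and with each array centred on its median (0.93; 0.0376). B6C3F1 minus C57Bl/6 was 0.53 (limma adjusted p = 0.348) and B6C3F1 minus C3H was -0.29 (0.677).

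Nppb, the precursor of BNP, had the widest spread of the tested members. The C3H mice read 13.42, 14.03, 11.94, 12.21 and 14.69, and the C57Bl/6 mice 13.22, 14.89, 14.04, 12.93 and 14.41. The B6C3F1 mice read 13.86, 14.25, 14.58, 14.74 and 14.49. C3H held the lowest mice of the study and also one near the top, so the strains overlapped throughout, and the B6C3F1 mice sat together in the upper part. From the lowest to the highest mouse the level spanned 6.71-fold in C3H, 3.90-fold in C57Bl/6 and 1.84-fold in B6C3F1. The means were 13.26 ± 1.17 in C3H, 13.90 ± 0.82 in C57Bl/6 and 14.38 ± 0.34 in B6C3F1 (SD, n = 5). C3H minus C57Bl/6 was -0.64 ± 0.42 (SE; 95% interval -1.52 to 0.24; limma adjusted p = 0.374), opposite in sign to the Nppa difference, though neither passed. B6C3F1 minus C3H was 1.13 ± 0.42 (95% interval 0.25 to 2.00; limma adjusted p = 0.148). Without C3H replicate 5 it was 1.48 and passed (limma adjusted p = 0.0236). B6C3F1 minus C57Bl/6 was 0.49 (limma adjusted p = 0.57). B6C3F1 lay 0.81 ± 0.36 above the midparent, which did not pass (limma adjusted p = 0.341).

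Nppa and Nppb are neighbours on mouse chromosome 4, with 0 genes listed between them in the RefSeq table of GRCm38.p6, while Ankrd1 lies on chromosome 19. The 250 bases before each start are shown because these 3 genes varied together from mouse to mouse, as described further on. They come from RefSeq, GRCm38.p6, and read 5′ to 3′ on the gene's strand: Nppa chr4:148000472-148000721 (plus), Nppb chr4:147985650-147985899 (plus) and Ankrd1 chr19:36119845-36120094 (minus). Capitals mark matches to the searched motifs: TATAAA for the TATA box, AGATAA for factors of the GATA family, CATTCC for the M-CAT site of TEAD factors, TNAAGTG for factors of the Nkx family, and the CArG box of serum response factor, each on both strands.
Nppa: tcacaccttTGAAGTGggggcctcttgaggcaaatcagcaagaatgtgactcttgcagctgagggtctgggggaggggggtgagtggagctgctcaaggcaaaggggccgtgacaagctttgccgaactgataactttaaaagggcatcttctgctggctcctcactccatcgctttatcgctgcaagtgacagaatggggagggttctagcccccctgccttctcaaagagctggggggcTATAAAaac
Nppb: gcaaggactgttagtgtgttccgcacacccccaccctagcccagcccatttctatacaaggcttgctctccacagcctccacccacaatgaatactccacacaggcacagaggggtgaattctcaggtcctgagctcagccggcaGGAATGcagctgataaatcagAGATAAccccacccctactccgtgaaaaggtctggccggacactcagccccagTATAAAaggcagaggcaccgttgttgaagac
Ankrd1: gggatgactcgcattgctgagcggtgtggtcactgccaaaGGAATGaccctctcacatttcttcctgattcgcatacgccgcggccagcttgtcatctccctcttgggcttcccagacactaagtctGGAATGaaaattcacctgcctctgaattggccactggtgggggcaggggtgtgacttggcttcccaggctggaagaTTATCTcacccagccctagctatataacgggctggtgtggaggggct
In Nppa the Nkx letters lie 241 to 235 bases before the start and the TATA letters 9 to 4. In Nppb the M-CAT letters on the opposite strand lie at 105 to 100, the GATA letters at 84 to 79 and the TATA letters at 31 to 26. Ankrd1 holds M-CAT letters on the opposite strand at 210 to 205 and 123 to 118, and GATA letters on the opposite strand at 47 to 42. No marked matches overlapped, and the CArG box letters were in none of these windows. Of 32851 promoters of that length, 12.4% held TATAAA, 9.99% AGATAA, 12.6% CATTCC, 10.1% TNAAGTG and 1.47% a CArG box. These are matches of letters only, not measured binding. Only these exact letters were searched, so other forms of the same sites are not marked. None of the searched motifs lay in all 3 windows shown. The table held promoters for 9 of the 10 members. Among the rest, a listed promoter of Fhl1 held TATA and CArG letters, and one of Fhl2 TATA, GATA and CArG letters. Csrp3 held Nkx and Gdf15 M-CAT letters, while Rcan1 and Xirp2 held no searched motif. Any part of these motifs in the shared variation was not tested.

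Ankrd1, a titin-binding ankyrin-repeat protein that moves between sarcomere and nucleus, had a pair of probe sets. On 1420992_at the C57Bl/6 mice read 13.65, 13.99, 14.02, 13.64 and 14.06. The C3H mice read 14.13, 14.43, 14.26, 13.87 and 14.85, and the B6C3F1 mice 14.00, 13.95, 14.39, 14.42 and 14.84. Of the C3H mice, 4 were above every C57Bl/6 mouse and replicate 4 was not. The difference was 0.44 ± 0.17 (SE; limma adjusted p = 0.104), and it passed without C3H replicate 4 (limma adjusted p = 0.0446) and with the poly-A signal as a covariate (0.60; 0.0443). On 1420991_at the same contrast was 0.21 ± 0.22 (limma adjusted p = 0.624). The means on that probe set were 13.35 ± 0.22 in C57Bl/6, 13.55 ± 0.49 in C3H and 13.49 ± 0.53 in B6C3F1 (SD, n = 5), so its strains overlapped more. B6C3F1 minus C57Bl/6 was 0.45 on the first probe set (limma adjusted p = 0.156) and 0.14 on the other (0.783).

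Fhl1, a scaffold of LIM domains linked to titin and stretch signalling, showed the clearest strain difference of the members. On 1417872_at the C3H mice read 13.90, 13.62, 13.76, 13.87 and 13.47. The C57Bl/6 mice read 13.29, 12.86, 12.93, 12.95 and 12.91, and the B6C3F1 mice 13.17, 13.53, 13.26, 13.10 and 13.19. Every C3H mouse was above every C57Bl/6 mouse, and B6C3F1 lay between, touching both. C3H exceeded C57Bl/6 by 1.66-fold (0.73 ± 0.11, SE; limma adjusted p = 5.22e-05). This held in all 29 alternative settings, at 0.67 to 0.84. B6C3F1 was 1.39-fold below C3H (-0.47 ± 0.11; limma adjusted p = 0.0106), which did not pass with the poly-A signal as a covariate (-0.41; 0.0919). It stood 0.26 above C57Bl/6 (limma adjusted p = 0.192) and -0.11 from the midparent (0.643). The other Fhl1 probe set, 1459003_at, was dim, between 4.21 and 6.51 over the 15 mice, and was not tested.

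Fhl2, the related scaffold with repressive effects on calcineurin signalling, had 1 probe set and a difference of opposite sign. It ranged from 15.66 to 15.94 in C57Bl/6, 15.23 to 15.64 in C3H and 15.30 to 15.86 in B6C3F1. The C3H mice were all below the C57Bl/6 mice, by a small margin. The difference of -0.26 ± 0.11 (SE) did not pass (limma adjusted p = 0.143). It was -0.11 under quantile normalization and -0.15 with each array centred on its median. The 8 ventricular muscle markers had a median difference of -0.20, and a shared part in the Fhl2 difference was not tested. Fhl1 and Fhl2 were the 2 members whose C3H and C57Bl/6 mice did not overlap, as was true of 9.56% of all tested probe sets. No member separated B6C3F1 from either parent without overlap, beside 5.33% (C57Bl/6) and 5.59% (C3H) of all.

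Xirp1, an actin-binding protein of the intercalated disc, was higher in C3H. The C3H mice read 11.73, 11.20, 10.94, 11.68 and 10.93, the C57Bl/6 mice 10.60, 10.99, 10.79, 10.75 and 10.58, and the B6C3F1 mice 11.32, 10.72, 10.82, 11.38 and 10.82. Of the C3H mice, 3 were above all C57Bl/6 mice, and the other pair fell just under the highest of them. The difference was 0.55 ± 0.17 (SE), 1.47-fold (limma adjusted p = 0.0302). This call was lost without C3H replicate 1 (0.077) or 4 (0.0953), or C57Bl/6 replicate 1 (0.0716), 3 (0.0518), 4 (0.0555) or 5 (0.0721), all limma adjusted p. It was also lost without an intensity trend (0.0778) and with the poly-A signal as a covariate (0.38; 0.207). B6C3F1 stood 0.27 above C57Bl/6 (limma adjusted p = 0.394) and -0.28 from C3H (0.406).

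Rcan1, induced by calcineurin and in turn its inhibitor, had a pair of probe sets, both of a kind that can match several transcripts of the gene. On 1416600_a_at the C57Bl/6 mice read 12.04, 12.65, 12.46, 11.85 and 12.26, the C3H mice 11.77, 12.19, 11.66, 11.17 and 12.54, and the B6C3F1 mice 12.03, 11.98, 12.32, 12.10 and 12.92. The strains overlapped, with C3H replicate 4 the lowest mouse. C3H minus C57Bl/6 was -0.39 (limma adjusted p = 0.285), B6C3F1 minus C57Bl/6 was 0.02 (0.981) and B6C3F1 minus C3H was 0.40 (0.357). On 1416601_a_at, a dimmer set with C3H at 7.41 ± 0.36 and B6C3F1 at 8.01 ± 0.30 (SD, n = 5), B6C3F1 minus C3H was 0.59 (limma adjusted p = 0.123). Without C3H replicate 5 it was 0.73 and passed (limma adjusted p = 0.0367).

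Csrp3, the muscle LIM protein of the Z-disc, was the member whose strain means lay closest. It stood at 15.62 ± 0.15 in C57Bl/6, 15.52 ± 0.20 in C3H and 15.66 ± 0.22 in B6C3F1 (SD, n = 5), and the strains overlapped. The C3H minus C57Bl/6 difference was -0.10 ± 0.12 (SE; limma adjusted p = 0.648). B6C3F1 minus C57Bl/6 was 0.03 (limma adjusted p = 0.911). The sign of the parental difference turned under other scalings, quantile normalization (0.027) and centring on the median (0.0042).

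**Figure D2:**
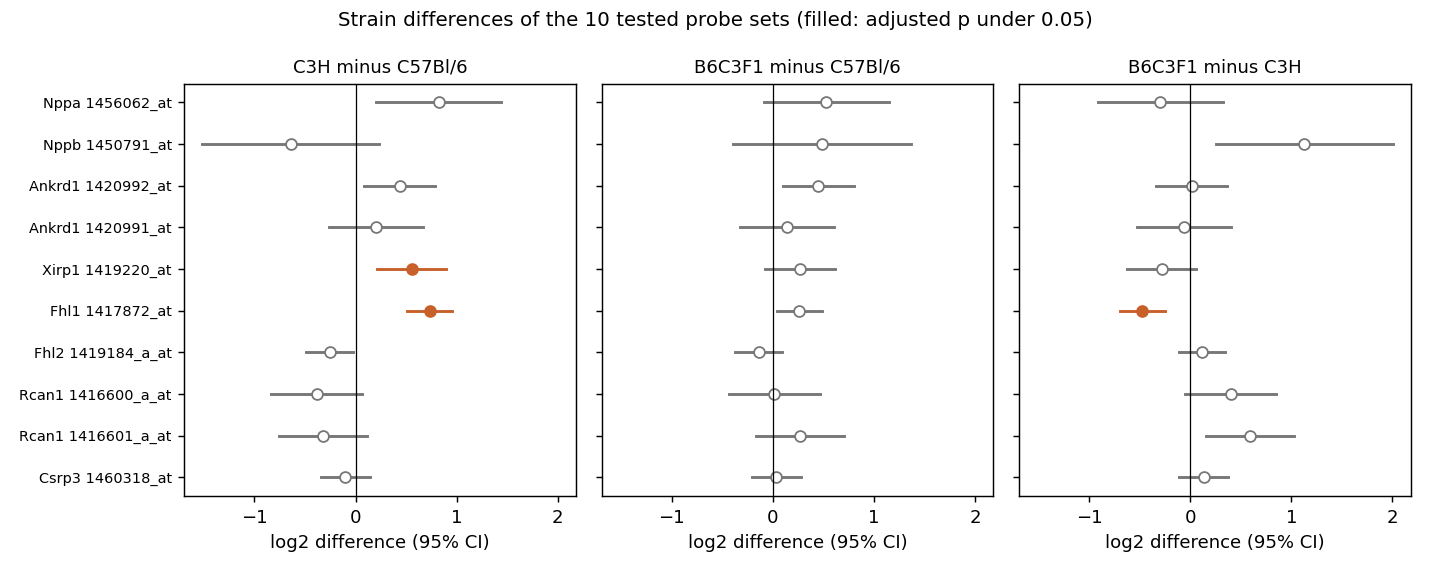
Differences between strains (log2 units) for the 10 tested member probe sets, with 95% intervals from limma and filled points for calls. Only Fhl1 1417872_at and Xirp1 are filled in C3H minus C57Bl/6, and Nppb has the widest intervals.

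Mice of the same strain lay far apart for some members. The pooled within-strain SD (15 mice, 12 residual degrees of freedom) was 0.85 for Nppb and 0.59 for Nppa. Among tested probe sets within 1 log2 unit of the same level, 99.9% had a smaller SD than Nppb and 99.4% a smaller SD than Nppa. The bright Rcan1 set (0.42; 96.8%) and the Ankrd1 sets (0.32; 92.8% and 0.44; 97.6%) were also near the top. Fhl1 (0.17; 54.7%), Fhl2 (0.18; 61.9%), Csrp3 (0.19; 71.4%) and the dimmer Rcan1 set (0.34; 53.9%) lay nearer the middle, and Xirp1 (0.30; 88.3%) stood between. The sets of Rcan1 thus differed in their place. The dim Fhl1 set, which was not tested, had an SD of 0.75.

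**Figure D3:**
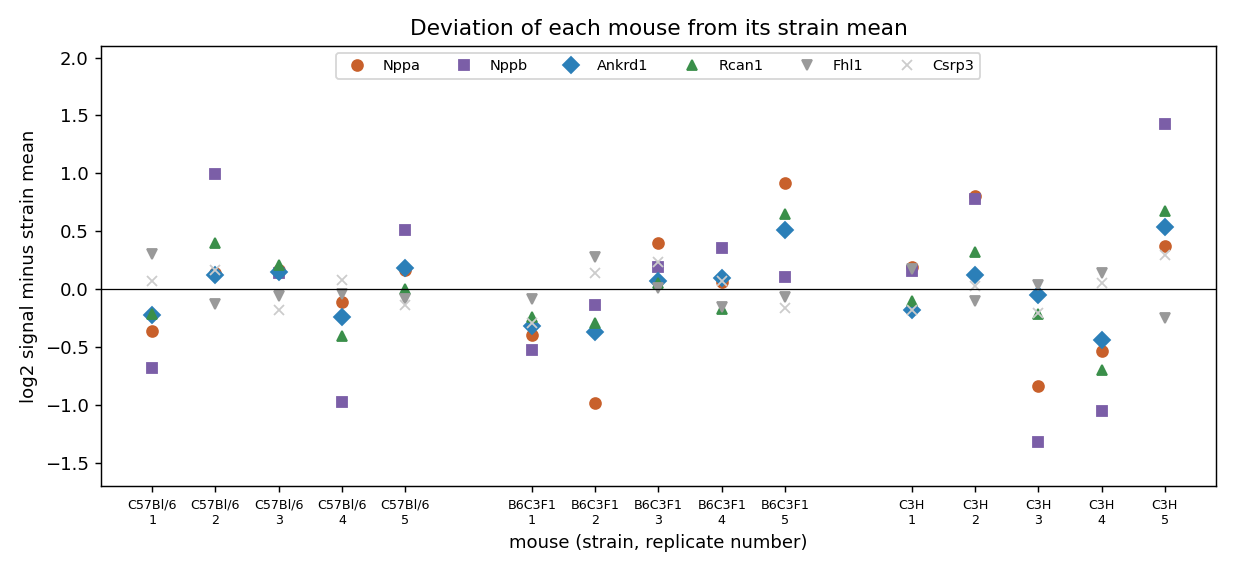
Deviation of each mouse from its strain mean (log2 units) for Nppa, Nppb, Ankrd1, Rcan1, Fhl1 and Csrp3 in the 15 mice, by strain and replicate number. Nppa and Nppb lie on the same side of the strain mean in 15 of 15 mice.

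On their brightest probe sets, the variable members rose and fell together within strains. Other probe sets followed these genes more closely, as described further on. After each strain mean was subtracted, Nppa and Nppb deviated in the same direction in 15 of 15 mice, Nppa and Ankrd1 in 14, Nppb and Ankrd1 in 14, and Ankrd1 and Rcan1 in 14. Nppa and Fhl1 did so in 4 of 15, as did Nppb and Fhl1. The dimmer Rcan1 set, 1416601_a_at, was not part of these counts and did not always follow. In C3H replicate 2 and C57Bl/6 replicate 2 it read 7.12 and 7.34, under its strain means of 7.41 and 7.74. Ankrd1 stood 0.12 above its strain mean in both mice. The tests covered 6 pairs, by 100000 permutations of mice within strains, two-sided, with p adjusted by Benjamini-Hochberg over the 6. For Nppa and Nppb, Pearson's r was 0.67 (permutation p = 0.00502, adjusted 0.0135) and Spearman's rho 0.66 (permutation p = 0.0109, adjusted 0.0218). For Nppa and Ankrd1 they were 0.76 (permutation p = 0.00674, adjusted 0.0135) and 0.74 (permutation p = 0.00342, adjusted 0.015). For Nppb and Ankrd1 they were 0.71 (permutation p = 0.00326, adjusted 0.0135) and 0.71 (permutation p = 0.00499, adjusted 0.015). Without the 2 mice farthest from the median of the first gene, r was 0.66, 0.81 and 0.69. Nppa and Ankrd1 did not pass without B6C3F1 replicate 5 (r 0.67, adjusted permutation p = 0.0626). With the poly-A signal or the Gapdh ratio removed as well, alternatives chosen after the data were seen, all 3 pairs still passed (r of 0.68, 0.77 and 0.64, and of 0.65, 0.74 and 0.70).

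Nppa is also an atrial gene, so it was set beside 3 of the atrial markers in the same way. With Myl7, the atrial light chain, r was -0.51 (permutation p = 0.126, adjusted 0.189; rho -0.46, permutation p = 0.162), and -0.35 without the 2 farthest mice. It passed without C3H replicate 4 (r -0.67, adjusted permutation p = 0.032). With Myl4 r was -0.32 (permutation p = 0.327, adjusted 0.392; rho -0.35, permutation p = 0.283), and with Sln, which was dim, 0.08 (permutation p = 0.819; rho 0.00, permutation p = 0.996). The other 4 atrial markers were not set beside Nppa.

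**Figure D4:**
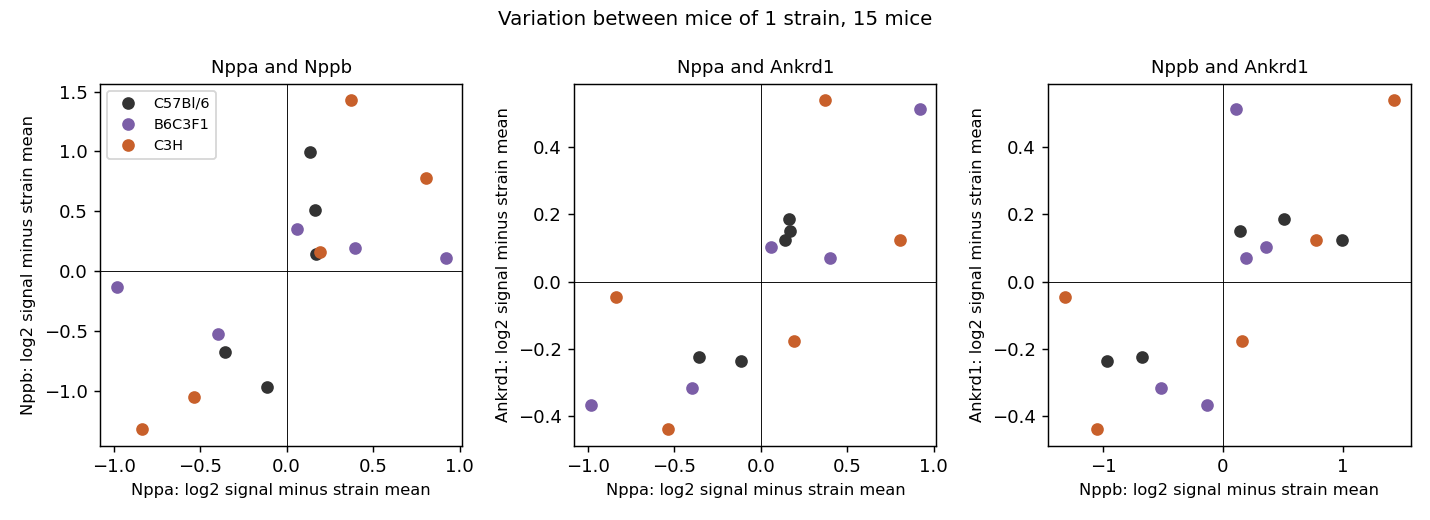
Strain-centred levels of Nppb and Ankrd1 against Nppa, and of Ankrd1 against Nppb, 1 point per mouse and coloured by strain (log2 units). Pearson's r over the 15 mice is 0.67, 0.76 and 0.71.

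The probe sets most like each of these genes, by the same strain-centred r over 15 mice among those with 1 symbol, were described without a test. For Nppa they were Dpysl3 (0.91), Nr3c1, the glucocorticoid receptor (0.90), and Cnn3, a calponin (0.89). For Nppb they were Ckap4 (0.92), Itga1, an integrin chain for collagen (0.92), and Spred1, an inhibitor of Ras signalling (0.91). For Ankrd1 they were Cilp, a matrix protein (0.93), Rcan1 itself (0.91) and Fkbp4, a co-chaperone of Hsp90 (0.89). The brighter Rcan1 set, 1416600_a_at, thus ranked 2 among 23046 probe sets for Ankrd1. An r over 0.8 was reached by 34 of 23047 probe sets for Nppa, 101 of 23047 for Nppb and 67 of 23046 for Ankrd1. These lay above the r of 0.67, 0.76 and 0.71 between the 3 genes, so their shared variation was not particular to them. All share the same arrays.

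Of 9 tested genes that process, bind and relay the peptides, 2 were higher and 1 lower in C3H than in C57Bl/6, where 12.7% of all tested probe sets passed. Mme, the protease neprilysin that degrades the peptides, was 1.91-fold higher in C3H (0.93; limma adjusted p = 0.000256), and was also higher in B6C3F1 (0.75; 0.0094). Pde2a, a phosphodiesterase that cyclic GMP stimulates, was 1.49-fold lower in C3H (-0.57; limma adjusted p = 0.000465), and was lower in B6C3F1 than in C57Bl/6 (-0.44; 0.0196), a call lost in 6 of 29 alternatives. Prkg1, the kinase activated by cyclic GMP, was higher in C3H (0.35; limma adjusted p = 0.0474), a call lost in 18 of 29 alternatives, 12 of which left out 1 array. Between B6C3F1 and C3H, Prkg1 and the clearance receptor Npr3 were lower (-0.43 and -0.50; limma adjusted p = 0.0301 and 0.0447), calls lost in 9 and 15 of the 29 alternatives. Corin, which cleaves the Nppa precursor, was at -0.38 in C3H minus C57Bl/6 (limma adjusted p = 0.302) and Furin at 0.28 (0.372). The main receptor Npr1 was dim.

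Of 14 other fetal and stress genes tested, 7 were higher in C3H than in C57Bl/6 and 0 lower, with a median difference of 0.72 beside -0.03 over all tested probe sets. Of all tested probe sets 5.70% were higher and 7.01% lower in this comparison. Myh7, the slow myosin chain of the fetal and stressed ventricle, was 5.51-fold higher (2.46; limma adjusted p = 1.72e-09). Thbs4 (3.64-fold; 1.56e-07), Nmrk2 (2.65-fold; 0.000369) and Myl4 (2.23-fold; 6.72e-06) were also higher, with limma adjusted p in parentheses. Between B6C3F1 and C3H, 3 of the 14 were lower in B6C3F1, beside 2.02% of all tested probe sets. Among them were Myh7 (-1.17) and Thbs4 (-1.24; limma adjusted p = 0.000197 and 0.000129). Skeletal actin Acta1, which often rises with Nppa, stood at 13.49 ± 0.78 in C57Bl/6, 14.01 ± 1.14 in C3H and 14.94 ± 0.35 in B6C3F1 (SD, n = 5). Its differences from C57Bl/6, 0.52 (limma adjusted p = 0.475) and 1.45 (0.0591), did not pass. This list was chosen with results of these mice known, so its count is no independent evidence of direction.

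Of 13 calcineurin signalling genes, which include the pathway that induces Rcan1, 0 passed between C3H and C57Bl/6 by limma, and 2 had an unadjusted p under 0.05. For this list and those after it, the share of all tested probe sets passing there was 12.7% (5.70% higher, 7.01% lower in C3H). An unadjusted p under 0.05 was held by 24.9% of all. Between B6C3F1 and C3H 1 calcineurin gene passed, beside 4.92% of all tested probe sets. This was the Rcan1 relative Rcan2 (-0.33; limma adjusted p = 0.034), a call lost in 11 of 29 alternatives. Of 13 Z-disc and disc partners, 3 were higher in C3H than in C57Bl/6: Pdlim3 (0.71; limma adjusted p = 0.0443, lost in 17 of 29 alternatives), Myot (0.63; 0.00156) and Nrap (0.38; 0.0019). Of 5 relatives of the members, 1 was higher, Csrp2, the Csrp3 relative of smooth muscle (0.55; limma adjusted p = 0.00324). Of 14 cardiac transcription factors, Hand2 (0.57; limma adjusted p = 0.0122) and Nkx2-5 (0.46; 0.0145) were higher. Gata6 (-0.51; 0.0462) and Tead1 (-0.42; 0.0248) were lower in C3H. The Nkx2-5 call was lost in 1 of 29 alternatives, the poly-A covariate, and those of Gata6 and Tead1 in 19 and 7.

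Gdf15, a stress hormone of the integrated stress response, could not be measured under its symbol. Of 11 tested genes of that response, Ddit3, the factor CHOP, was higher in C3H than in C57Bl/6 (0.65; limma adjusted p = 0.0315, lost in 8 of 29 alternatives). Ddit4, an inhibitor of mTOR signalling, was 3.09-fold lower (-1.63; limma adjusted p = 8.97e-06), and was higher in B6C3F1 than in C3H (1.01; 0.00463). The other 9 did not pass in the parental comparison, where 12.7% of all tested probe sets passed.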

How the data were processed

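Expression was measured on 15 Affymetrix arrays, 1 per labelled mouse, and the p-values measure the spread between these samples. The deposited values are log2 signals; the authors used MAS5, per the submitters' processing notes, with no version given in the sources used here. The log2 step and a common scale (a 2% trimmed mean shared by the arrays) were read from the values. No detection calls were used so precision depends on having 5 arrays per strain. The signals were made linear, 16 was added and log2 taken again, which understates changes of low genes. Probe sets at or above the 40th percentile of means entered 1 limma fit of all 15 arrays (version 3.58.1, R 4.3.3; lmFit and eBayes with a trend, Benjamini-Hochberg over 27019 probe sets). The procedure was tested on simulated data. All member probe sets are named; in each list, taken by the brightest probe set per gene, up to 4 called genes with the largest parental difference are, besides Myl7, Myl4, Sln, Myh7 and Acta1. Members and lists were chosen with earlier results of these data known. Alternatives covered pseudocount, filter, scaling, 1 probe set per gene, the variance model, the arrays fitted, a replicate block, covariates, array weights and leaving out each array.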

Additional observations from a re-analysis of the deposited data

Results flagged for a closer look

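In 2 of the 33 groups of 5 mice checked (11 probe sets in 3 strains), 1 mouse stood apart from the other 4, where chance alone gives about 1 in 20. Fhl1 (1417872_at) in C57Bl/6 replicate 1 read 13.29, above the next mouse at 12.95. The C3H minus C57Bl/6 call of Fhl1 held without that mouse. Fhl2 in C3H replicate 3 read 15.23, below the next mouse at 15.54.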

How the results depend on the processing

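Across 29 alternatives the Fhl1 difference between C3H and C57Bl/6 kept its direction and its call, and no call of a member reversed. Signs of small uncalled differences turned as follows; the cause was not tested. Under quantile normalization, C3H minus C57Bl/6 for Csrp3 was 0.027, B6C3F1 minus C3H was -0.00216 for Ankrd1 1420992_at and -0.00592 for Fhl2, and B6C3F1 minus midparent for Xirp1 was 0.000451. With arrays centred on their median, which moved the median of all C3H minus C57Bl/6 differences from -0.03 to 0.08, Csrp3 was 0.0042 in the parental comparison and Ankrd1 1420992_at -0.0555 in B6C3F1 minus C3H. With the poly-A covariate, Ankrd1 1420992_at was -0.15 in B6C3F1 minus C3H, and against the midparent Ankrd1 1420991_at was -0.0467, Xirp1 0.0765 and Fhl2 0.0238. With the Gapdh ratio as a covariate, C3H minus C57Bl/6 was -0.00325 for Ankrd1 1420991_at and 0.0305 for Csrp3, B6C3F1 minus C3H was 0.18 for Ankrd1 1420991_at, -0.0301 for Fhl2 and -0.0212 for Csrp3, and Csrp3 was -0.00594 against the midparent. With array weights, Rcan1 1416600_a_at was -0.0322 in B6C3F1 minus C57Bl/6, Ankrd1 1420992_at -0.0122 in B6C3F1 minus C3H, and against the midparent Ankrd1 1420991_at was -0.00104 and Xirp1 0.054. Leaving out 1 array at a time, B6C3F1 minus C3H ran from -0.24 to 0.12 for Ankrd1 1420991_at and -0.11 to 0.15 for 1420992_at; B6C3F1 minus C57Bl/6 from -0.0389 to 0.31 for Ankrd1 1420991_at, -0.0262 to 0.11 for Csrp3 and -0.15 to 0.115 for Rcan1 1416600_a_at; and B6C3F1 minus midparent from -0.14 to 0.21 for Ankrd1 1420991_at, -0.0679 to 0.0729 for Fhl2, -0.11 to 0.36 for Nppa and -0.10 to 0.0668 for Xirp1. The Nppa and Sln correlation ran from -0.18 to 0.31. Members called for C3H minus C57Bl/6 numbered 1 without a trend and 1 to 3 without 1 array; for B6C3F1 minus C3H, 0 with the poly-A covariate and 1 to 3 without 1 array. Correlated pairs passing numbered 2 to 4 without 1 array. With 1 probe set per gene, fewer sets are tested and calls over all sets were 2052 between the parents, 502 between B6C3F1 and C57Bl/6, 813 between B6C3F1 and C3H and 83 against the midparent, in place of 3435, 807, 1330 and 163. Without a trend they were 468 (B6C3F1 minus C57Bl/6) and 101 (midparent), with array weights 1741 and 396, and with the poly-A covariate 718 (B6C3F1 minus C3H) and 104 (midparent). Without 1 array they ran from 463 to 1406 (B6C3F1 minus C57Bl/6) and 96 to 382 (midparent). Mice with the same replicate number showed little shared deviation (correlations of -0.06 to 0.11 over 15 pairs), so the main fit did not pair them. Low correlations cannot exclude a weaker link by number. Replicate numbers follow the order of the samples within each strain, and the sample titles pair no mice across strains. With a block by this number, Ankrd1 1420992_at passed between C3H and C57Bl/6 (0.44, limma adjusted p = 0.0284), which rests on the numbering alone.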
